A study of Mus musculus with 12 samples.

Results

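Leukemogenic fusion genes of 2 kinds were set against each other here, NUP98-HOXD13 (ND13) and NUP98-HOXA10 (NA10), with 3 arrays of each, so that 6 of the 12 arrays of the series carry the comparison. The others enter through the estimate of the spread and as reference levels. Members were chosen by label alone: ND13 replicates 1, 2 and 3, NA10 replicates 1, 2 and 3, and all 22626 probe sets of the MOE430A array that are not hybridization controls. The cells of all 4 groups came from the bone marrow of (C57Bl/6Ly-Pep3b x C3H/HeJ) F1 mice older than 12 weeks, given 150 mg/kg of 5-fluorouracil 4 days before harvest. They were prestimulated for 48 hours with IL-6 at 10 ng/ml, IL-3 at 6 ng/ml and SCF at 100 ng/ml, kept for 2 days with irradiated GP+E86 virus producers, cultured for another 24 hours and sorted as GFP+, Sca-1+ and Lin-. ND13 joins NUP98 to the homeodomain gene HOXD13 and occurs in human acute myeloid leukemia, whereas NA10 was engineered from HOXA10. Both were carried by an MSCV retrovirus with GFP behind an internal ribosome entry site. The other 2 groups received ND13(N51S), whose mutated homeodomain does not bind DNA, or the GFP vector alone. The cells were sorted in bulk and are not clones, and they were taken within days of transduction. The comparison asks how far the expression profiles of the 2 active fusions differ.

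NUP98 fusions join the phenylalanine-glycine repeats of a nucleoporin, which recruit transcriptional coactivators, to the homeodomain of a HOX protein, which binds DNA together with TALE cofactors such as PBX and MEIS. HOX genes of the A and B clusters are active in blood stem cells and are shut off as the cells mature, and lasting HOX activity keeps progenitors in an immature, dividing state. HOXA10 is of the Abdominal-B class and is normally expressed in marrow progenitors. HOXD13 also belongs to that class but is best known from the developing limbs and genitalia.

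The 6 arrays were alike in quality. Their median signals were 135 to 146, the background was 36.4 to 69.8, and the 3'-to-5' ratios were 1.99 to 2.71 for Gapdh and 1.72 to 2.38 for beta-actin. Signals are on the linear scale of MAS5, scaled by the authors to a common trimmed mean, and background is the level that 95% of the 27 bacterial control probe sets of an array do not exceed. Of the other 6 arrays, ND13(N51S) replicate 2 had ratios of 48.9 for Gapdh and 9.09 for beta-actin, and the scanner record given with GFP control replicate 1 describes GFP- cells of the ND13(N51S) culture, against its label. Counts of calls are therefore given with and without these 2 arrays, and differences from the GFP control also without its replicate 1. In the sorted cells Kit and Cd34, both markers of progenitors, were above background on all 6 arrays, and of the antigens used for depletion Cd4 was below it on all 6, Cd5 and Cd8a were above it on 2 arrays of each fusion, at means of 51.1 and 70.0 with ND13 and 64.6 and 63.4 with NA10, and Ptprc, whose B220 form was depleted but whose other forms most blood cells carry, was above it on all 6. Ly6a, which encodes Sca-1, had no probe set of its own.

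Over the 11313 probe sets with the higher mean signals, an ND13 array and the NA10 array of the same replicate number correlated at r = 0.967 to 0.977 (3 pairs, across probe sets, which are not independent replicates). Arrays of the same fusion but different numbers correlated at 0.937 to 0.973 (6 pairs), and arrays of different fusion and number at 0.930 to 0.967 (6 pairs). An ND13 array was thus at least about as close to the NA10 array of its own replicate number as to another ND13 array. The labels do not say whether arrays of the same number came from the same experiment. The median absolute log2 difference of a same-number pair was 0.175 to 0.215, against 0.204 to 0.333 between arrays of the same fusion.

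With limma and Benjamini-Hochberg adjustment, 7 probe sets were called higher with ND13 and 2 higher with NA10 (adjusted p under 0.05 and at least 1.5-fold), which is 0.0309% and 0.00884% of all tested and 0.0398% together. At the unadjusted p under 0.05 and 1.5-fold that the study's methods used, 537 (2.37%) were higher with ND13 and 376 (1.66%) with NA10 in the same fit, 4.04% together. Without the fold threshold 1087 of 22626 probe sets had an unadjusted p under 0.05. That is not above the share of 0.05 reached with no difference at all. The unadjusted counts, here and below, therefore cannot be read as that many real differences. By value alone 51.6% were higher with ND13. The 3 arrays of each fusion did not overlap for 1221 probe sets higher with ND13 (5.4%) and 905 higher with NA10 (4.0%). With 3 against 3 arrays some probe sets separate without any difference. For genes named below by their difference non-overlap was a condition, so there it adds no support. Signals under background were also raised to the background of their array, a choice made after seeing the data. The unadjusted p and 1.5-fold then gave 678 and 176, so that the ND13 share of these probe sets went from 58.8% to 79.4%. The backgrounds were 49.9, 40.5 and 69.8 with ND13 and 36.4, 37.9 and 41.5 with NA10. They were higher with ND13 in each same-number pair, so this step by itself moves probe sets below background toward ND13. With quantile normalization the counts were 417 and 408, an ND13 share of 50.5%. With median centring they were 459 and 457, a share of 50.1%. Without ND13(N51S) replicate 2 the calls were 13 and 6, with that array and GFP control replicate 1 left out together they were 17 and 7, and with any other single array left out they were 4 to 8 and 1 to 3. A fit of the 6 arrays alone called 32 and 17 probe sets, on 2 residual degrees of freedom.

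A missed threshold does not show that 2 groups are alike, so the 90% confidence interval of each difference was also set against 2-fold. It lay inside 2-fold for 11721 probe sets, 51.8% of all tested. Among the 11313 brighter probe sets this held for 91.2%, with a median absolute log2 difference of 0.12, and among as many dimmer ones for 12.4%, with 0.47. The data therefore bound the difference between the fusions closely for well expressed genes and hardly at all for dim ones.

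**Figure D1:**
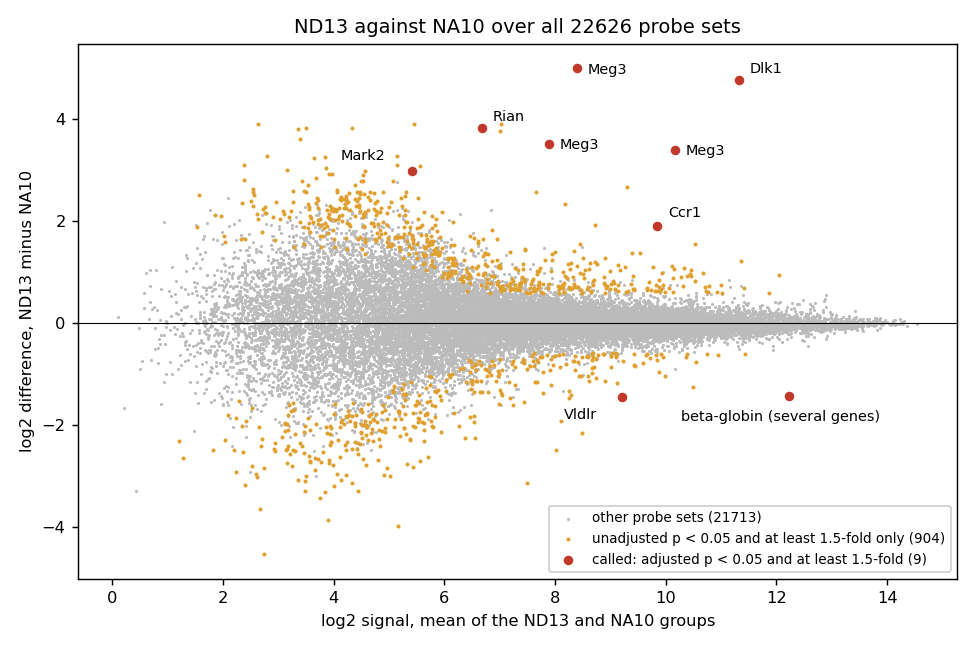
Log2 difference, ND13 minus NA10 (vertical axis), against mean log2 signal of the 2 groups (horizontal axis), 1 point per probe set, with called probe sets in red and those past the unadjusted thresholds only in orange. The cloud narrows with rising signal, and the called probe sets of Dlk1 and Meg3 stand 3.41 to 5.01 above 0.

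The largest differences among the called probe sets belonged to 1 imprinted locus on chromosome 12, where Dlk1, Meg3 and Rian were all higher with ND13. Dlk1 encodes a membrane protein related to Notch ligands and is transcribed from the paternal chromosome, while Meg3 and Rian are noncoding RNAs transcribed from the maternal one. The Dlk1 signals were 13178, 8489.9 and 16893 on ND13 arrays 1, 2 and 3 and 471, 236 and 826 on NA10 arrays 1, 2 and 3. Every ND13 array was more than 10 times as bright as every NA10 array. The log2 difference was 4.78 ± 0.32 (SE, 95% interval 4.09 to 5.47, adjusted p = 5.16e-05, limma), or 27.4-fold with an interval of 17.0 to 44.3, and the 3 same-number pairs differed by 4.81, 5.17 and 4.35. The GFP control gave 278 ± 268 and ND13(N51S) 661 ± 230.2 (mean ± SD, n = 3), so the NA10 arrays lay near both controls. Against the GFP control, whose arrays both comparisons share, the difference was 5.89 ± 0.32 for ND13 (adjusted p = 4.78e-06) and 1.12 ± 0.32 for NA10 (adjusted p = 0.424). Without GFP control replicate 1 these were 5.46 ± 0.27 and 0.68 ± 0.27 (adjusted p = 1.84e-05 and 0.986).

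Meg3 was read by 5 probe sets, 3 of them called. The brightest gave 4861, 3716 and 2812 with ND13 and 349, 397 and 306 with NA10, a log2 difference of 3.41 ± 0.21 (adjusted p = 4.29e-05) or 10.6-fold (7.75 to 14.6). The widest gap was at 2636, 1282 and 1453 against 121, 36.4 and 33.5, a difference of 5.01 ± 0.35 (adjusted p = 7.17e-05) in which 1 of 3 NA10 arrays was above background. No ND13 array of either probe set came near an NA10 array. The third called probe set differed by 3.53 ± 0.47 (adjusted p = 0.0283), and it was called in 12 of 21 alternatives. Neither of the other two was called, of which one was above background on 1 ND13 array and no NA10 array and the other differed by 0.50 ± 0.46.

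Rian, the host of many small nucleolar RNAs, had 3 probe sets with the same sign. Signals of the called probe set were 509.7, 226 and 317 with ND13 and 58.2, 10.8 and 20.1 with NA10, where 1 of 3 arrays was above background, a difference of 3.83 ± 0.54 (adjusted p = 0.037). It was called in 9 of the 21 alternatives that could test it. The others, at 3.77 ± 0.58 (adjusted p = 0.0649) and 1.61 ± 0.39 (adjusted p = 0.521), were not called. Dlk1 and the brightest Meg3 probe set were called in 22 of 23 alternatives, with adjusted p at most 0.00983 and 0.00594 in these 22, and were not called by the methods' t-test, which called no probe set after adjustment. Of the 8 genes listed for this locus, these 3 were the only ones with a probe set of their own. Among the 20 measured imprinted genes of other loci, 0 were called and 2 passed the unadjusted thresholds, both higher with NA10. They were Grb10, a growth factor receptor adaptor (292, 377 and 238 with ND13, 578, 518 and 558 with NA10, -0.89 ± 0.23), and Phlda2, a growth restrictor of the placenta, below background on every ND13 array and at least 1.55-fold higher with NA10.

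**Figure D2:**
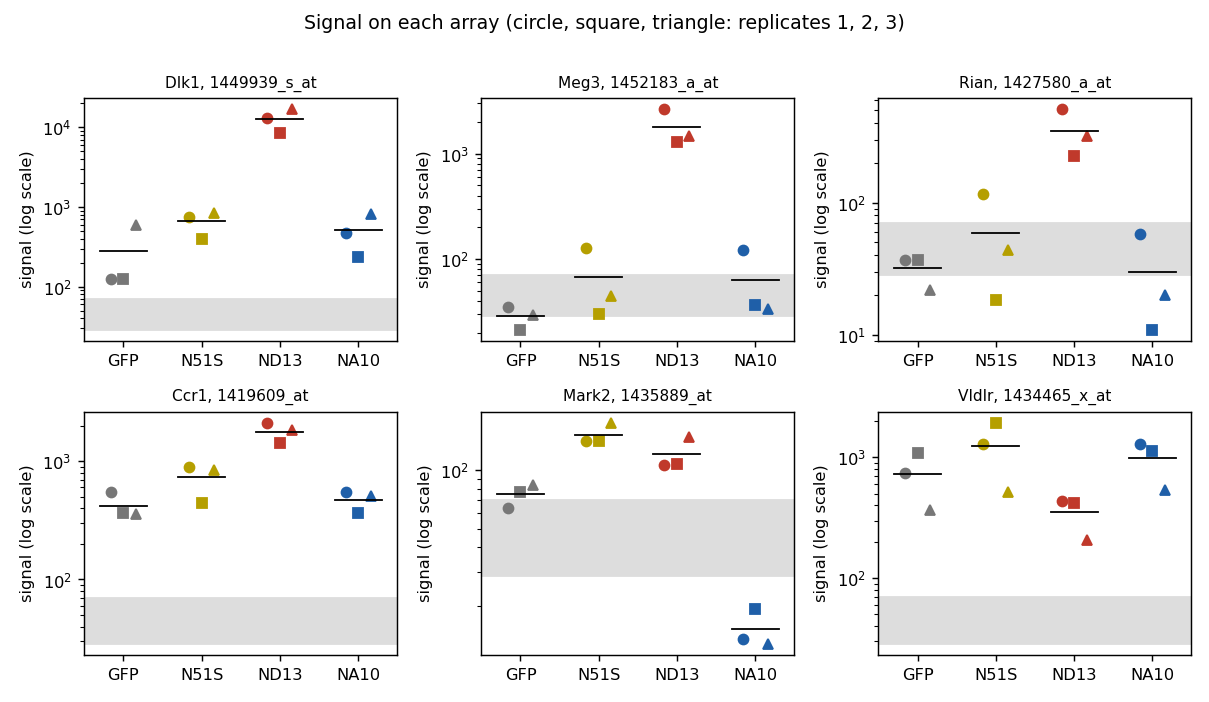
Signal on a log axis for each array of the 4 groups, 1 panel per called probe set of Dlk1, Meg3, Rian, Ccr1, Mark2 and Vldlr, with replicates as symbols, group means as bars and the range of the array backgrounds as a gray band. The ND13 arrays lie above all NA10 arrays in every panel but that of Vldlr, where they lie below.

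The upstream sequences of the called genes were read for HOX binding motifs, since both fusions bind through a homeodomain. The 250 bases before the RefSeq start site (mouse build GRCm38.p6, on the strand of the gene) are shown for Dlk1, Meg3 and Ccr1, called higher with ND13, and for Vldlr, called higher with NA10. Capitals mark TAAT, the core of most homeodomain sites, and TTTAT, the core that Abdominal-B class proteins bind, on either strand and with overlaps joined. Dlk1 lies at chr12:109452573-109452822, Meg3 at chr12:109540746-109540995, Ccr1 at chr9:123968693-123968942 on the minus strand, and Vldlr at chr19:27216234-27216483. For Meg3 and Vldlr, which have 2 start sites, the first is shown.
Dlk1: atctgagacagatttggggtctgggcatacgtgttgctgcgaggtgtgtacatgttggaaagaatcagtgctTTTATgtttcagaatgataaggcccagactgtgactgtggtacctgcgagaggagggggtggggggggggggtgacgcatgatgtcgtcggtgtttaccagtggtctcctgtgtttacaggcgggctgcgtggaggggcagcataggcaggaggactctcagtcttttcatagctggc
Meg3: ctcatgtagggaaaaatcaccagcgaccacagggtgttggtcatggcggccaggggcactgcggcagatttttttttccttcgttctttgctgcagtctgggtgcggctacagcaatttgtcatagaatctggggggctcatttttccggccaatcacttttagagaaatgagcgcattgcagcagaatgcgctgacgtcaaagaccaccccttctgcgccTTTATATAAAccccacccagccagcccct
Ccr1: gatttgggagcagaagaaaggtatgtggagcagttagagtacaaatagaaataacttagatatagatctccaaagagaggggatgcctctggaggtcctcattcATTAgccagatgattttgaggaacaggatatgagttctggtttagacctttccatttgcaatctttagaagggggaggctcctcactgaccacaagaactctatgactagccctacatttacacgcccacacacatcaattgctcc
Vldlr: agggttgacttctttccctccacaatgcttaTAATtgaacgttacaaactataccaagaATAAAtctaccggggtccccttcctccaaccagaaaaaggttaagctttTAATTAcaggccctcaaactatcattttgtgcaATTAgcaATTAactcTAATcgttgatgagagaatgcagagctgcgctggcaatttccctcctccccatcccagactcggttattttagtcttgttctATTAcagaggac
TAAT occurred 0 times in Dlk1 and Meg3, 1 time in Ccr1 and 7 times in Vldlr, against 54.9% of 32851 upstream windows with at least 1 match and a median of 1. TTTAT occurred 1 time in Dlk1, 2 times in Meg3, 0 times in Ccr1 and 1 time in Vldlr, against 37.3% of all windows with a match. The 2 matches in Meg3 adjoin on opposite strands, in the single stretch TTTATATAAA. The second start site of Vldlr had 1 TAAT and 0 TTTAT, that of Meg3 0 and 1, and Rian, called higher with ND13, had 2 TAAT and 0 TTTAT. Mark2, also called higher with ND13, had 0 TAAT and 0 TTTAT at both of its start sites. The longer motifs TGATTTAT, TGATTGAT, TTTACGA and CAATAAA were searched on both strands of windows of 300 bases. None was found for the 18 genes with the clearest differences that had a window, against 6.66% of all windows with any of them. These matches are letters in a short window and say nothing of binding.

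Ccr1, a receptor for inflammatory chemokines on monocytes and other myeloid cells, was the called gene outside that locus with the smallest error. It gave 2102, 1418 and 1829 with ND13 and 553, 362 and 507 with NA10, a log2 difference of 1.92 ± 0.19 (adjusted p = 0.00199) or 3.77-fold (2.84 to 5.02). The ND13 arrays stood apart from all NA10 arrays. NA10 differed from the GFP control (422 ± 106) by 0.17 ± 0.19 (adjusted p = 0.949) and ND13 by 2.09 ± 0.19 (adjusted p = 6.28e-04). A second Ccr1 probe set differed by 1.43 ± 0.37 and was not called (adjusted p = 0.595). Without GFP control replicate 1 the differences from the GFP control were 0.23 ± 0.23 and 2.14 ± 0.23 (adjusted p = 0.998 and 0.00441). The Ccr1 call held in 20 of 23 alternatives and was lost without the replicate number as a block (adjusted p = 0.0763), with eBayes without trend and robust, and by the methods' t-test.

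Most genes of monocytes and macrophages were higher with ND13 by value. Over all 12393 genes, read by 1 probe set each, 0.0242% were called higher with ND13 and 0.00807% higher with NA10, 51.7% were higher with ND13 by value, and 4.13% passed the unadjusted thresholds in either direction. Of 26 measured genes of this list, 23 were higher with ND13 by value, 1 was called (Ccr1) and 9 passed the unadjusted thresholds, all of them higher with ND13, where 2.5% of all 12393 genes did so. The median log2 difference of the list was 0.44, against 0.01 over all genes, and its medians in the 3 same-number pairs were 0.63, 0.26 and 0.35. Clec4n (dectin-2), a receptor for fungal glycans, gave 2089, 1492 and 1439 with ND13 and 949, 1219 and 595 with NA10, a difference of 0.90 ± 0.23 (adjusted p = 0.553). Tyrobp, the signaling adaptor of many myeloid receptors, gave 3033, 1850.1 and 1599 and 1375, 1476 and 1026, a difference of 0.70 ± 0.18 (adjusted p = 0.595). In both genes all ND13 arrays were above all NA10 arrays. The means of Clec4n and Tyrobp were 2586 ± 1135 and 1805 ± 591 in ND13(N51S), against 1673 ± 361 and 2161 ± 766 with ND13. In the GFP control they were 911 ± 431 and 1029 ± 357. Fcer1g, an adaptor of the same kind shared by Fc receptors and not on that list, gave 1801, 765 and 1110.3 and 531, 461 and 362, a difference of 1.37 ± 0.23 (adjusted p = 0.125). Without ND13(N51S) replicate 2 Fcer1g was called (adjusted p = 0.0339, limma). Csf1r, the receptor of the macrophage growth factor, gave 4113, 2648 and 3623 and 2647, 2094 and 1701, a difference of 0.69 ± 0.20, with ND13 replicate 2 and NA10 replicate 1 at the same level. Of the other markers of mature macrophages on the list, Adgre1 (F4/80) differed by 0.81 ± 0.29 and passed the unadjusted thresholds, Cd68 differed by 0.45 ± 0.31, and Itgam, Mrc1, Msr1 and Fcgr1 lay at 0.05, 0.04, 0.01 and -0.22 with 90% intervals inside 2-fold.

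The 7 macrophage markers checked for other cells in the gate (Csf1r, Cd68, Adgre1, Msr1, Mrc1, Fcgr1 and Itgam) gave a summed signal of 5074 to 7337 with ND13 and 3929 to 4514 with NA10, without overlap. Of them 6 were higher with ND13 by value, 0 were called, 2 passed the unadjusted thresholds, and none was below background on all 6 arrays. Their sums were 2346 to 4531 in the GFP control and 4923 to 9947 in ND13(N51S). Their part in the myeloid differences was not tested, and in sorted bulk RNA fewer cells of a type and less RNA per cell cannot be told apart. The neutrophil markers summed to 4246 to 14625 with ND13 and 5983 to 13639 with NA10, which overlap.

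Antigen presentation and chemokine receptor genes gave small counts in the same direction. In the list of MHC class II presentation 8 of 10 measured genes were higher with ND13 by value, 0 were called and 2 passed the unadjusted thresholds. Cd74, the invariant chain, gave 3709, 1604 and 2244 with ND13 and 1203, 919.6 and 486 with NA10, a difference of 1.54 ± 0.47 (adjusted p = 0.748). H2-Aa, a class II alpha chain, gave 4118, 3080.4 and 4422 and 1993, 2511 and 902, a difference of 1.21 ± 0.50 (adjusted p = 0.9997). In both, NA10 replicate 3 was the dimmest of the 6 arrays. In ND13(N51S) the means of Cd74 and H2-Aa were 2192 ± 1915 and 4157 ± 2617, against 2519 ± 1079 and 3874 ± 704 with ND13. The inactive mutant thus lay near the ND13 level, with a wide spread. The GFP control gave 540 ± 116 and 1323 ± 398. Of 16 chemokine receptors 15 were higher with ND13 by value, 1 was called and 3 passed the unadjusted thresholds, Ccr1, Ccr7 and Cx3cr1. Ccr7, which guides cells to lymph nodes, was dim at 60.4, 95.2 and 56.9 with ND13 and 3.95, 78.5 and 6.44 with NA10, above background on 2 ND13 arrays and 1 NA10 array, so that no difference is given. Cx3cr1, a monocyte receptor, differed by 0.83 ± 0.37, with a second probe set at -0.73 ± 1.04.

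Immediate early genes, which respond within minutes to growth factors, stress and cell handling, were also brighter on the ND13 arrays by value. Of 28 measured genes 24 were higher with ND13 by value and 0 were called. At the unadjusted thresholds 7 were higher with ND13 and 1 with NA10, and the list median was 0.52, with 0.95, 0.41 and 0.21 in the 3 pairs. Jun, a subunit of AP-1, gave 707, 542 and 542 with ND13 and 228, 262 and 294 with NA10, a difference of 1.19 ± 0.24 (adjusted p = 0.334). Its mean was 168 ± 32.6 in the GFP control and 602 ± 247 in ND13(N51S), so by this probe set the inactive mutant lay at the ND13 level. A second Jun probe set gave 92.24, 70.28 and 513.1 on ND13(N51S) arrays 1, 2 and 3. Its mean was 370.7 with ND13 and 68.07 in the GFP control, so only replicate 3 of the mutant reached the ND13 level. The study's quantitative RT-PCR for Jun also put the mutant below ND13, at the fold change of NA10. Ier3, an early gene that restrains cell death, gave 7269, 6400.0 and 3951 and 3618, 3107 and 2323, a difference of 0.94 ± 0.20 (adjusted p = 0.369). Btg2, an antiproliferative p53 target, gave 697, 449 and 549.6 and 219, 293 and 296, a difference of 1.06 ± 0.24 (adjusted p = 0.416). In these 3 genes the ND13 arrays were above all NA10 arrays. Nr4a1, an orphan nuclear receptor, gave 1579, 579 and 300.2 and 339, 174 and 324, which overlap, with ND13 replicate 1 far above the rest. Egr3 was the member on the NA10 side, at 39.6, 92.5 and 42.6 with ND13 and 149.6, 171 and 89.2 with NA10, a difference of -1.29 ± 0.50. ND13 replicates 1 and 3 were below background for Egr3, so the size of its difference is not measured.

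Among 17 cell cycle inhibitors 0 were called, 5 passed the unadjusted thresholds higher with ND13 and 0 higher with NA10. Besides Btg2, Btg1 gave 1432, 1215 and 979 with ND13 and 721, 635 and 845 with NA10, a difference of 0.71 ± 0.23 (adjusted p = 0.759). Cdkn1a (p21), the main p53-driven inhibitor of cyclin kinases, gave 2144, 1952 and 2136 and 1368, 1074 and 1651, a difference of 0.63 ± 0.22 (adjusted p = 0.942). The 3 ND13 arrays were above all NA10 arrays for both. The genes of proliferation itself hardly differed. For DNA replication and S phase 0 of 28 genes passed the unadjusted thresholds, 27 had a 90% interval inside 2-fold, and the differences ran from -0.31 to 0.27 with a median of 0.02. For mitosis and G2/M 0 of 27 passed, 26 had the interval inside 2-fold, and the median was 0.03. Among all 12393 genes, 57.0% had such an interval.

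The remaining genes with the clearest ND13 side were of mixed function. Mark2, a kinase of cell polarity, was the only other called gene, by 1 of its probe sets, with 106, 107 and 148 with ND13 and 13.5, 19.4 and 12.8 with NA10, below background on every NA10 array. That is at least 3.09-fold (adjusted p = 0.0201), and the call held in 12 of 21 alternatives. The GFP control gave 75.0 ± 10.1 and ND13(N51S) 152 ± 19.2, so the ND13 mean of 121 lay between these controls. ND13 passed the threshold against neither (adjusted p = 0.706 and 0.759, limma). NA10 was lower than ND13(N51S) (adjusted p = 0.0132) but missed the threshold against the GFP control (adjusted p = 0.0823). The other 2 Mark2 probe sets were not called, at 0.08 ± 0.64 and 0.34 ± 0.23. Bcl2l11 (Bim), an initiator of apoptosis, gave 1845, 1769 and 1317 with ND13 and 809, 955 and 613 with NA10, a difference of 1.06 ± 0.18 (adjusted p = 0.141). Ifitm6, a membrane protein of an interferon-inducible family, gave 745, 419.6 and 643 and 249.98, 171 and 188, a difference of 1.55 ± 0.28 (adjusted p = 0.18). In these 3 genes no NA10 array reached an ND13 array, which was a condition for naming them. Tpm4, an actin-binding tropomyosin, differed by 0.92 ± 0.16 (adjusted p = 0.136), and Cd52, a small surface antigen of leukocytes, by 1.14 ± 0.23 (adjusted p = 0.334). Without ND13(N51S) replicate 2, Bcl2l11, Ifitm6 and Tpm4 were called (adjusted p = 0.0374, 0.0128 and 0.0218, limma) and Cd52 was not.

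On the NA10 side 1 gene was called. Vldlr, a lipoprotein receptor that also binds reelin, gave 432, 423 and 208 with ND13 and 1302, 1136 and 534 with NA10, a log2 difference of -1.46 ± 0.20 (adjusted p = 0.0331), or 2.75-fold higher with NA10. Replicate 3 was the dimmest of each fusion, and no ND13 array reached an NA10 array. Against the GFP control (735 ± 359) NA10 differed by 0.47 ± 0.20 (adjusted p = 0.754) and ND13 by -0.99 ± 0.20 (adjusted p = 0.0806), so neither comparison passed. Without GFP control replicate 1 they were 0.36 ± 0.24 and -1.10 ± 0.24 (adjusted p = 0.998 and 0.214). ND13(N51S) gave 1242 ± 708. From that group ND13 differed by -1.69 ± 0.20 (adjusted p = 0.0145, limma) and NA10 by -0.23 ± 0.20 (adjusted p = 0.659). The other 3 Vldlr probe sets had the same sign and were not called. The Vldlr call held in 11 of 23 alternatives and was lost without the replicate block (adjusted p = 0.9998), with eBayes without trend and robust, and when any of the 6 arrays of the 2 fusions was left out (adjusted p = 0.0696 to 0.480).

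The other call was a probe set that detects several beta-globin genes, the adult chains of hemoglobin, with 1808, 3468 and 3606 with ND13 and 5633, 7919 and 9842 with NA10. It differed by -1.43 ± 0.14 (adjusted p = 0.00217), 2.69-fold higher with NA10, and exceeded the GFP control with NA10 by 1.65 ± 0.14 (adjusted p = 0.00117), or by 1.48 ± 0.14 without GFP control replicate 1 (adjusted p = 0.00463). In each same-number pair NA10 was the brighter fusion, and replicate 1 was the dimmest of both. The call held in 19 of 22 alternatives and was lost without the replicate block (adjusted p = 0.846), with eBayes without trend and robust and by the methods' t-test. A probe set for several alpha-globin genes gave 928, 378 and 691 with ND13 and 123, 162 and 93.9 with NA10, the opposite order, at 2.34 ± 0.42 (adjusted p = 0.18). It was called in the fit of the 6 arrays alone (adjusted p = 0.0202, limma). Among 17 other erythroid genes 0 were called and 0 passed the unadjusted thresholds. The erythroid markers Alas2 and Car1 were below background on all 6 arrays, and the erythroid marker sums overlapped, at 286 to 319 with ND13 and 181 to 390 with NA10.

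**Figure D3:**
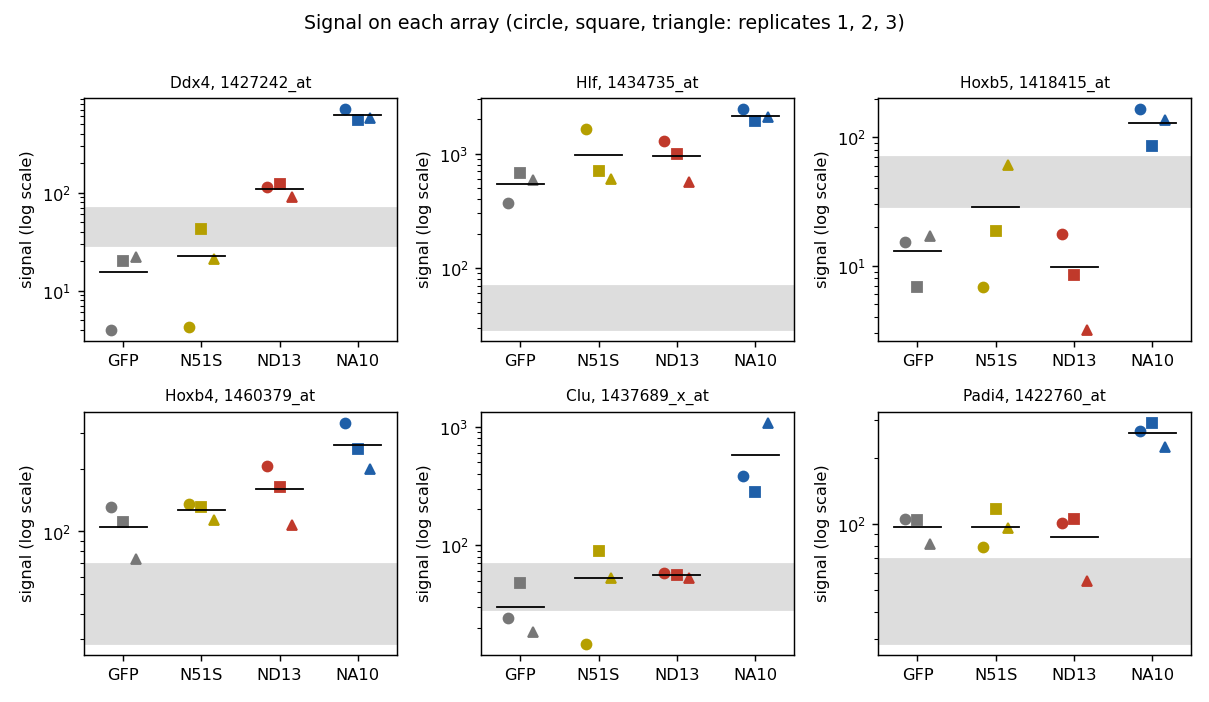
Signal on a log axis for each array of the 4 groups for genes brighter with NA10, 1 panel per probe set, with replicates as symbols, group means as bars and the range of the array backgrounds as a gray band. NA10 arrays lie above all ND13 arrays for Ddx4, Hlf, Hoxb5, Clu and Padi4, the Hoxb4 arrays overlap, and none of these probe sets was called.

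None of the HOX genes and stem cell regulators was called, and most of the dim HoxB cluster was brighter with NA10 by value. Of 9 measured HoxB genes 7 were higher with NA10 by value, 0 were called and 3 passed the unadjusted thresholds, where 1.63% of all genes did so in that direction, and the list median was -0.73. Hoxb4, which expands stem cells when overexpressed, gave 209, 164 and 108 with ND13 and 335, 252 and 201 with NA10, a difference of -0.73 ± 0.24 (adjusted p = 0.787), and ND13 replicate 1 overlapped NA10 replicate 3. Hoxb5, a marker of long-term stem cells, gave 17.8, 8.47 and 3.16, all below background, and 165, 85.7 and 136, at least 2.39-fold higher with NA10 (adjusted p = 0.422). Hoxb2 gave 166, 126 and 17.8 and 187, 157 and 272, which overlap, with ND13 replicate 3 the dimmest. In the HoxA cluster 0 of 9 genes were called or passed the unadjusted thresholds. Its list median was 0.27 in the fit, while the medians within the pairs were -0.27, -0.22 and -0.04, so no direction can be given.

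Hoxa9, the HOX gene most tied to acute myeloid leukemia, was bright with both fusions, at 4965, 4920.5 and 5563 with ND13 and 6184, 6350.3 and 7127 with NA10. Its difference was -0.35 ± 0.13 (95% interval -0.63 to -0.06, adjusted p = 0.981), and every NA10 array was above every ND13 array by a small margin. Its second probe set lay at 0.01 ± 0.22. Meis1, the TALE cofactor that acts with Hoxa9, gave 881, 909 and 679.5 and 1208, 999.7 and 995, a difference of -0.38 ± 0.18 (95% interval -0.78 to 0.02). Hoxa5 gave 493, 393 and 362 and 691, 582 and 612 (-0.60 ± 0.48), and Hoxa7 gave 292, 382 and 178 and 205, 267 and 179 (0.34 ± 0.63), with wider errors. Pbx3, another TALE cofactor, gave 552, 365 and 463 and 621, 408 and 469.6, a difference of -0.12 ± 0.20, and Pbx2 differed by 0.11 ± 0.25, with its other 2 probe sets at 0.42 ± 0.30 and -0.43 ± 0.68. Meis2 was the TALE gene that passed the unadjusted thresholds, at 50.2, 17.5 and 14.4 with ND13 and 6.24, 4.71 and 4.15 with NA10, with 1 of the 6 arrays above background.

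Among 20 stem cell transcription factors 15 were higher with NA10 by value, 15 had a 90% interval inside 2-fold, 0 were called and 2 passed the unadjusted thresholds. Hlf, a bZIP factor of blood stem cells, gave 1297, 991 and 571 with ND13 and 2456, 1951 and 2082 with NA10, a difference of -1.25 ± 0.35 (adjusted p = 0.637). All NA10 arrays were above all ND13 arrays, and the GFP control gave 548 ± 157. A second probe set differed by -0.97 ± 0.30, with arrays that overlap. Tcf15, a marker of quiescent stem cells, differed by -1.13 ± 0.47. The progenitor markers Kit and Cd34 together gave 3736 to 4419 with ND13 and 4436 to 5849 with NA10, without overlap, with 0 of 2 called. Their part in these differences was not tested.

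Several other genes were named because their NA10 arrays lay apart from all ND13 arrays at the unadjusted thresholds, without being called. That separation is therefore no added support. Clu (clusterin), an extracellular chaperone, gave 58.2, 55.7 and 52.9 with ND13 and 383, 283 and 1074 with NA10, a difference of -3.14 ± 0.64 (adjusted p = 0.334) and a GFP control mean of 30.1 ± 15.6. Its other 3 probe sets had the same sign, at -2.16 to -1.14. Padi4, an enzyme that converts arginine to citrulline in histones, gave 101, 106 and 55.5 and 266, 289 and 224, a difference of -1.62 ± 0.29 (adjusted p = 0.18). Zmat3, a p53 target that binds RNA, gave 258, 165 and 153 and 658, 341 and 468, a difference of -1.34 ± 0.28 (adjusted p = 0.369). All of them were above background on every NA10 array. Clnk, an adaptor of immune receptors, gave 539, 1060.2 and 581 and 1437, 1577 and 1277 (-1.04 ± 0.22), and Cnn3, an actin-binding calponin, gave 257, 397 and 160.4 and 613, 676 and 419 (-1.13 ± 0.22), with the same sign in all 6 of its probe sets. Of these genes only Clnk was called without ND13(N51S) replicate 2 (adjusted p = 0.0299, limma). Bgn, a matrix proteoglycan, gave 9.83, 44.7 and 18.2 with ND13 and 82.0, 128 and 96.0 with NA10 (-2.32 ± 0.50). Only 1 of the 3 ND13 arrays was above background, so the size of the Bgn difference is not measured. Its GFP control mean was 97.4 ± 93.4. The 8 fibroblast markers, genes of the kind the virus producer cells express, summed to 708 to 777 with ND13 and 829.5 to 1008 with NA10, without overlap. By value 3 of the 8 were higher with ND13. Only Postn, higher with NA10, passed the unadjusted thresholds, and none was below background on all 6 arrays. Their sums were 575 to 1443 in the GFP control and 1104 to 1889 in ND13(N51S). Their part in these differences was not tested.

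The study singled out genes raised by both active fusions, of which 71 of 74 had a probe set of their own here. That list was chosen on these samples, so its likeness between the fusions is partly set by the choice. Between ND13 and NA10 0 were called, 7 passed the unadjusted thresholds higher with ND13 and 2 higher with NA10, and 52 had a 90% interval inside 2-fold. The median difference was 0.14. Flt3, a cytokine receptor often mutated in leukemia, gave 1743, 1235 and 1556 with ND13 and 1917, 1363 and 1197 with NA10, a difference of 0.03 ± 0.37 (95% interval -0.78 to 0.84), and 649.7 ± 327 in the GFP control. Anxa1, an anti-inflammatory annexin, gave 6513, 5067 and 5531 and 5529, 4794 and 5620.0, a difference of 0.10 ± 0.20 (95% interval -0.34 to 0.54). Mef2c, a transcription factor of lymphoid and myeloid progenitors, gave 2532, 2718 and 2881 and 1904, 2304 and 2801, a difference of 0.23 ± 0.19 (95% interval -0.19 to 0.65). For these genes the arrays of the 2 fusions overlap.

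The members on the NA10 side were Hlf, given above, and Ddx4. Ddx4, an RNA helicase otherwise restricted to germ cells, gave 114, 121 and 90.8 with ND13, 708, 553 and 578 with NA10 and 3.96, 20.1 and 21.9 in the GFP control, where no array was above background. Every array of both fusions was above background, and every NA10 array was more than 4 times as bright as every ND13 array. Against the GFP control NA10 passed the threshold (adjusted p = 0.0146, limma) and ND13 missed it (adjusted p = 0.112). The Ddx4 difference between the fusions was -2.50 ± 0.69 and missed the threshold (adjusted p = 0.637). Ddx4 was called in the fit of the 6 arrays alone (adjusted p = 5.94e-04), as was Hlf (adjusted p = 0.0251). Ptprf, a receptor tyrosine phosphatase, ran opposite, at 726, 599.7 and 385 with ND13, 269.9, 216 and 205 with NA10 and 20.9 ± 8.57 in the GFP control. Its difference was 1.27 ± 0.57 (adjusted p = 0.9997), with no NA10 array at the level of an ND13 array. Pdcd1lg2, a ligand of the PD-1 receptor, gave 549, 441 and 493 and 228, 241 and 351, a difference of 0.88 ± 0.25 (adjusted p = 0.688). Csf2rb2, an IL-3 receptor subunit, gave 2164, 1667 and 1765 and 1091, 649 and 946, a difference of 1.08 ± 0.33 (adjusted p = 0.748), and Csf2rb, the common beta subunit, differed by 0.67 ± 0.32.

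**Figure D4:**
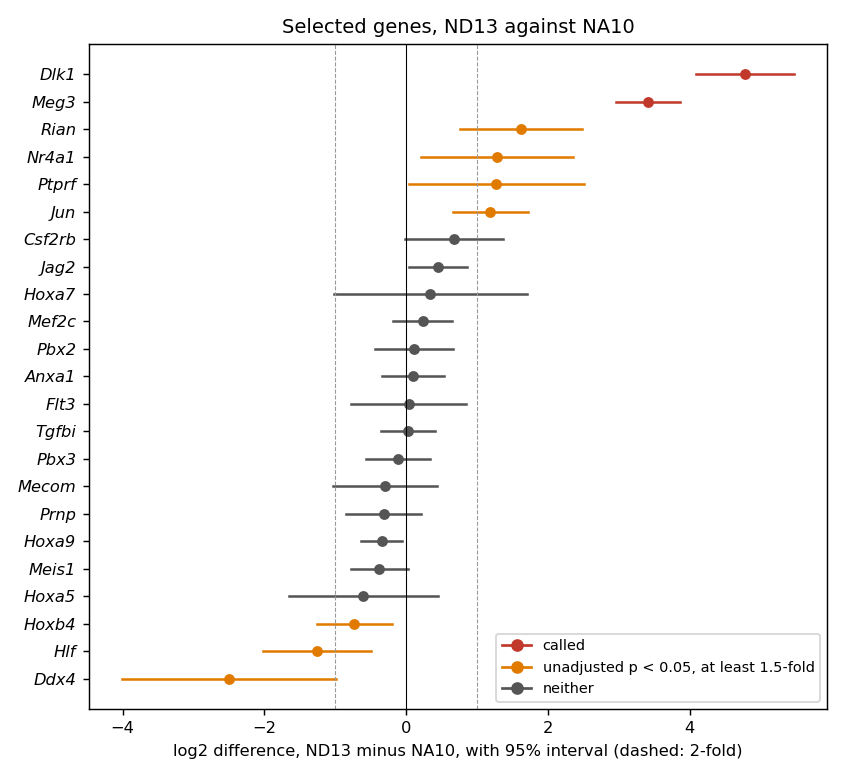
Log2 difference, ND13 minus NA10, with 95% confidence intervals (horizontal bars), 1 row per gene, colored by whether it was called, passed the unadjusted thresholds or neither, with dashed lines at 2-fold. Dlk1 and Meg3 lie far to the ND13 side, Ddx4 at -2.50 and Hlf at -1.25 to the NA10 side, and Flt3, Pbx3 and Anxa1 lie at 0.03, -0.12 and 0.10.

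In broad metabolic and housekeeping programs most genes were also bounded within 2-fold. In ribosome biogenesis 22 of 24 genes had a 90% interval inside 2-fold, 0 passed the unadjusted thresholds and the median was -0.08. For glycolysis and hypoxia this interval held for 21 of 23 genes, for cholesterol and fatty acid synthesis for 22 of 25, and for the unfolded protein response for 17 of 21. The gene of these lists past the unadjusted thresholds was Ddit4, an inhibitor of mTORC1, at 472, 1382 and 942 with ND13 and 353, 528 and 334 with NA10, a difference of 1.10 ± 0.31 (adjusted p = 0.637). The 11 control genes measured all had the interval inside 2-fold.

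**Figure D5:**
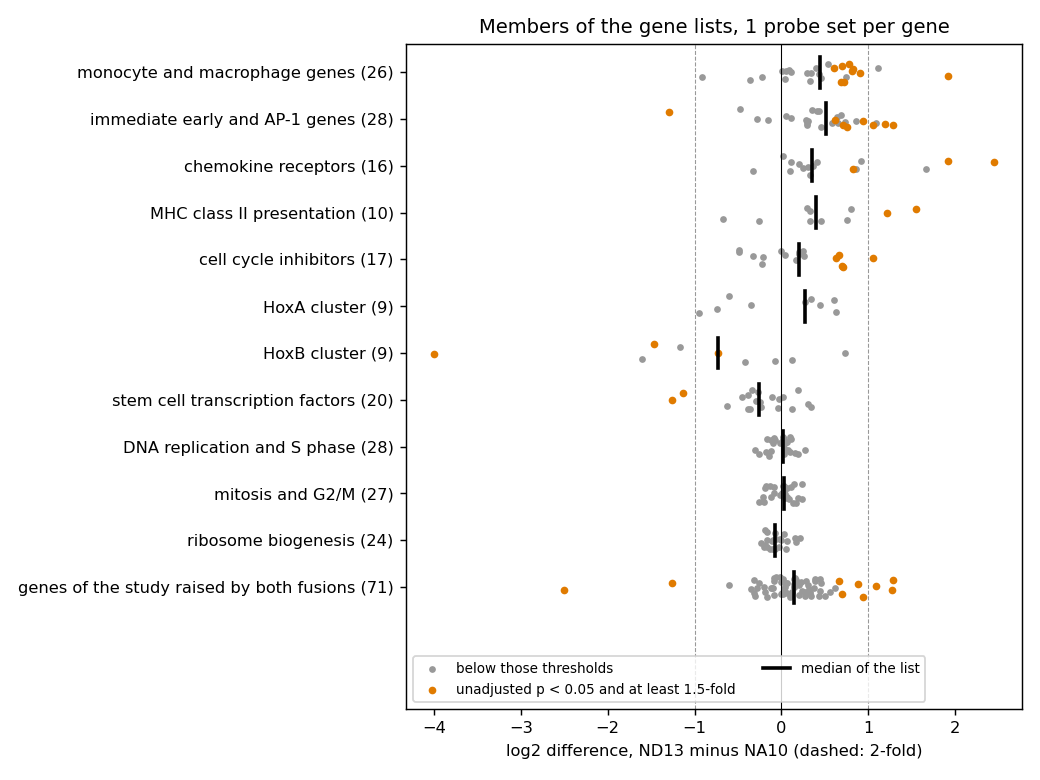
Log2 difference, ND13 minus NA10, of each measured member of 12 gene lists, with members past unadjusted p under 0.05 and 1.5-fold in orange and the list median as a bar. The medians of monocyte and macrophage genes (0.44) and immediate early genes (0.52) lie to the right, that of the HoxB cluster (-0.73) to the left, and replication, mitosis and ribosome biogenesis are tight around 0.

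The probe sets of the fused genes gave no check of the labels, since it is not given in the sources used here whether they detect the introduced cDNAs. Nup98 gave 425, 389 and 478 with ND13 and 579, 413 and 471 with NA10, a difference of -0.17 ± 0.23. Hoxa10 gave 58.6, 108 and 142 and 110.0, 115 and 332, which overlap (-0.74 ± 0.44), and Hoxd13 was below background on all 6 arrays. The amount of fusion protein in the 2 groups is therefore not known from these arrays.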

How the data were processed

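RNA of the sorted cells was amplified by double linear amplification and hybridized to MOE430A arrays by the authors, 12 samples in 4 groups of 3 independent experiments. The deposited values are signal intensities on a linear scale made with MAS5, per the labels, and scaled to a trimmed mean of 500.16 to 500.18 on the 6 arrays compared. The GC-RMA values of the methods were not used here. Of 22690 probe sets 64 controls were left out, and 20380 of the other 22626 carried 1 gene, 691 several and 1555 none, for 12393 genes, with 20351 matched by gene number.

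Signals were log2-transformed after a floor of 0.01, which 0 values reached, and not rescaled. The test was limma 3.58.1 in R 4.3.3, lmFit and eBayes (trend and robust) on all 12 arrays, with Benjamini-Hochberg adjustment over all probe sets and 6 residual degrees of freedom (11.79 in all at the median, prior included). P-values rest on the variation between arrays that remains after group and replicate number, pooled over the 4 groups and moderated by the prior. ND13(N51S) replicate 2 enters that variation. The replicate number was a block, since the labels speak of independent experiments and, among the brighter probe sets, the departures of an array from its group mean correlated at 0.465, 0.422 and 0.596 for ND13 and NA10 arrays of the same number and at -0.422 to 0.098 for different numbers. Over all probe sets these were 0.066 to 0.143 and -0.087 to 0.016. "At least" folds set a group below background on all its arrays at the background.

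The comparison, the 36 gene lists and the genes to be named were chosen with earlier results of these data known, and a list has 1 probe set per gene, that with the highest mean. Named were up to 12 genes in each direction whose groups do not overlap. Called ones came first, then those with the smallest p at the unadjusted thresholds. Also named were at most 3 members per list at those thresholds, genes the study follows, and Nup98, Hoxa10 and Hoxd13. Csf1r, Adgre1, Cd68, Itgam, Mrc1, Msr1, Fcgr1, Egr3, Pdcd1lg2, Pdcd1 and Cxcl2 were added after their values were seen, as marker, list or study genes. Promoter windows are from RefSeq, and the TAAT and TTTAT cores were searched after the longer motifs. Alternatives were the fit without the block, the 6 arrays only, quantile normalization, centring, a pseudocount, a filter on dim probe sets, plain eBayes, a single probe set per gene, the methods' t-test, each array left out, and 3 added later, 1 of them the differences from the GFP control without its replicate 1. The test was tried on simulated data. Plots used Python 3.11.15 and matplotlib 3.10.9.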

Additional observations from a re-analysis of the deposited data

How the results depend on the processing

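With 3 arrays a group the number of arrays limits the precision, and dim probe sets carry wide intervals. Calls higher with ND13 and with NA10 were 4 and 0 without the replicate number as a block (447 and 303 at the unadjusted thresholds, 796 probe sets at unadjusted p under 0.05), against 7 and 2 with the block that follows the pairing of the arrays. They were 32 and 17 with the 6 arrays of the 2 fusions only, 4 and 1 with eBayes without trend and robust, 3 and 1 with 1 probe set per gene (314 and 205 at the unadjusted thresholds, 7061 with the 90% interval inside 2-fold), and 8 and 4 with a pseudocount of 32 (19603 inside). Among probe sets above the median mean they were 3 and 2 (177 and 97 at the unadjusted thresholds). The methods' t-test called 0 after Benjamini-Hochberg adjustment, with 1013 at unadjusted p under 0.05, and gave 396 and 258 at their thresholds. Quantile normalization gave 7 and 2 calls (417 and 408 at the unadjusted thresholds) and median centring 7 and 3 (459 and 457). Raising signals to the background of their array, chosen after seeing the data, gave 16 and 7 calls, 678 and 176 at the unadjusted thresholds, 19345 inside 2-fold and a median shift of 0.13 over all probe sets. With GFP control replicate 1 and ND13(N51S) replicate 2 left out together, also chosen after seeing the data, the calls were 17 and 7. Leaving out 1 array at a time gave 4 to 13 calls higher with ND13 and 1 to 6 higher with NA10, 430 to 680 and 285 to 444 at the unadjusted thresholds, and 10230 to 12270 inside 2-fold, with 5 to 9 of the 9 calls kept. The count for ND13 was 4 without NA10 replicate 1 or 3, ND13 replicate 1 or GFP control replicate 3, and that for NA10 was 1 without any array of either fusion or GFP control replicate 2 or 3. The cause was not tested.

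Among the named genes, those whose sign turned lay near 0 or below background. Flt3 became -0.012 and Tgfbi -0.019 with centring, and Cd3g, at -2.55, became 0.43 with signals raised to background. Cd3g was below background on every array of both fusions, so the value of 0.43 is the difference of the array backgrounds alone. With 1 array left out at a time Flt3 ran from -0.089 to 0.23, Tgfbi from -0.17 to 0.19, Anxa1 from -0.081 to 0.29, Pbx2 from -0.059 to 0.25, Pbx3 from -0.21 to 0.015 and Hoxd13 from -0.13 to 0.64. Ccr1, Vldlr, the third Meg3 probe set, Rian and the beta-globin probe set lost their calls without the replicate block and also with eBayes without trend and robust, and all calls were lost with the methods' t-test. The cause was not tested.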

Other observations

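A few lymphoid and signaling genes passed the unadjusted thresholds outside the groups described above. In the list of lymphoid priming and early B cell genes 15 of 21 were higher with ND13 by value, 0 were called, 2 passed the unadjusted thresholds higher with ND13 and 1 higher with NA10, with a median of 0.20. Vpreb1, part of the surrogate light chain of the pre-B cell receptor, gave 45.9, 89.2 and 41.6 with ND13 and 15.95, 9.69 and 10.51 with NA10, above background on 1 ND13 array and no NA10 array, so that no fold is given. Ebf1, a factor of B cell commitment, gave 36.7, 37.2 and 39.3 and 21.5, 12.2 and 1.29, all below background. In the Notch pathway, where Dlk1 was the called gene among 22 measured, Nrarp, a feedback inhibitor of Notch signaling, gave 632, 859.5 and 876 and 382, 555 and 607, a difference of 0.63 ± 0.18 (adjusted p = 0.637). Hdc, which makes histamine in mast cells and basophils, gave 102, 204 and 31.4 with ND13 and 203, 413 and 193 with NA10, a difference of -1.54 ± 0.55 (adjusted p = 0.955). The 5 mast cell and basophil markers, Hdc among them, summed to 2732 to 3078 with ND13 and 2790.4 to 4963 with NA10, which overlap.

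The fit of the 6 arrays alone, on 2 residual degrees of freedom, called genes that the fit of all 12 did not. Besides Ddx4 and Hlf, these included Jun, Ier3, Cd74, Csf2rb2, Ptprf, Clu, Padi4, Zmat3 and Cnn3 (adjusted p = 0.00516 to 0.047, limma). Tpm4, Bcl2l11, Ifitm6, Fcer1g and Clnk were called both there and without ND13(N51S) replicate 2. Pdcd1 and Cxcl2, also called with the 6 arrays, were named after their values were seen. Pdcd1, the PD-1 receptor of exhausted T cells, gave 284, 651 and 424 with ND13 and 33.8, 67.7 and 10.0 with NA10, where 1 of 3 arrays was above background, so that the size of the difference is not measured (adjusted p = 0.642 in the fit of all arrays, 0.00815 with the 6 arrays). Its ligand Pdcd1lg2 was also brighter with ND13 by value. Cxcl2, a chemokine that attracts neutrophils, gave 2480.5, 2057 and 544 and 152, 343 and 206, a difference of 2.67 ± 0.81 (adjusted p = 0.754, or 0.0251 with the 6 arrays). In both genes every ND13 array was above every NA10 array.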
